A study of Mus musculus with 8 samples.

Results

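The genes examined here were expressed genes whose transcript level was lower after oxidative stress in both IPO13+/+ and IPO13-/- mouse embryonic stem cells (mESCs). They were chosen by their CPM, the read count of a gene scaled to the total of its library. A gene was taken when its mean reached 2 CPM in the untreated cells of both genotypes and its treated mean was at most 0.7 times its untreated mean in each of them. The choice gave 56 genes, which is 0.511% of the 10951 genes with a mean of 2 CPM or more in both untreated groups, out of 23420 gene symbols in all. Since the treated to untreated ratios chose the genes, those ratios are described and not tested. A counterpart set, with a treated mean at least 1/0.7 times the untreated mean in both genotypes, held 338 genes (3.09% of the expressed genes).

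mESCs are pluripotent cells of the early embryo that renew themselves in culture with the cytokine LIF. Their state is held by a network of transcription factors, and factors such as LEF1, which binds DNA together with beta-catenin, connect that network to WNT signals. Hydrogen peroxide (H2O2) oxidises proteins, lipids and nucleic acids, and cells exposed to it change the transcription and the stability of many mRNAs. IPO13 is an importin that carries cargo proteins, transcription factors among them, both into and out of the nucleus.

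RNA-seq was performed on 8 libraries in 4 groups of 2: untreated IPO13+/+ cells (WT-NS), IPO13+/+ cells given 125 µM H2O2 for 1 h and 2 h of recovery in clean medium (WT-ST), and the same pair for IPO13-/- cells (KO-NS and KO-ST). All cells had a 129 x C57BL/6 background, came from blastocysts and were grown without feeder cells in serum and LIF. How many clones stand behind a genotype is not given in the sources used here, so a genotype and its cell line cannot be told apart. Nothing in the labels says that the replicates were separate cultures, so the tests measure only the spread between these libraries, which may be technical. No batch or date is given for any library.

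Between 60397877 and 73789079 reads were counted on genes per library, and the level of 3 counts, taken as the smallest told from 0, lay between 0.0407 and 0.0497 CPM, counting error only. The lowest count of any of the 56 genes in any library was 47. Ipo13 itself was at 66.5 to 72.4 CPM in the IPO13+/+ libraries and at no more than 26.6 CPM in the IPO13-/- libraries, so transcripts of the gene were still counted in the knockout. All 10 mESC markers examined reached 1 CPM in every library, with sums of 6283 to 7285 CPM. The sum of 7 fibroblast markers was 6.45 to 9.23 CPM, that of 7 primitive endoderm markers 16.0 to 23.3 CPM, and that of 4 mesoderm markers 3.55 to 8.03 CPM. The 6 trophectoderm markers, which include Eomes, 1 of the 56 genes, summed to 21.4 to 37.4 CPM, and the 4 neuroectoderm markers to 126 to 160 CPM. No listed marker was at 0 in all libraries. Within each genotype the summed mESC, primitive endoderm, neuroectoderm and mesoderm markers were lower in both treated than in both untreated libraries. The fibroblast sum was higher, in no case with overlap. The trophectoderm sum was lower too, but it holds Eomes, whose fall the rule had fixed. Krt7, Krt18 and Elf5 were higher in both treated libraries of each genotype, and Cdx2 and Gata3 were mixed. Markers of the other lists did not all follow their sums either. Dppa5a was higher in both treated libraries of each genotype, and Pou5f1, Esrrb and Zfp42 in those of IPO13-/- cells. Sox2, Nanog, Tdgf1, Utf1, Klf4 and Fgf4 were lower in both genotypes. Nes was higher in treated IPO13+/+ cells, and Gata4 and Foxa2 in treated IPO13-/- cells. Thy1 was lower in treated IPO13+/+ cells. The part of all these markers in the results below was not tested.

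The promoters of genes with the lowest treated to untreated ratios are printed to show the sequence from which these transcripts start. RefSeq windows on GRCm38.p6, from 250 bases before to 50 bases after the start of transcription, were held for 40 of the 56 genes (71.4%), too few for a share over the genes to be given. The 4 windows below belong to Cyp2s1, Lef1, Peg12 and Tril, the first 4 genes in order of that ratio with an entry. They are written 5′ to 3′ in lower case, and capitals mark matches to 12 motifs searched on both strands, where overlapping matches join into 1 run. The RefSeq start need not be the gene start of the GENCODE annotation used further on.
Cyp2s1, chr7:25816476-25816775, strand minus: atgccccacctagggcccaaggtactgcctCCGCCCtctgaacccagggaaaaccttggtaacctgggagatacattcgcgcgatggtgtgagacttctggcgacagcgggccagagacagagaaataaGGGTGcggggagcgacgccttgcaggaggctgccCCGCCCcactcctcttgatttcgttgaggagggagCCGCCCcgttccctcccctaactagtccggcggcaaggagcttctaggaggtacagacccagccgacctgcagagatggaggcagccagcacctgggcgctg
Lef1, chr3:131110047-131110346, strand plus: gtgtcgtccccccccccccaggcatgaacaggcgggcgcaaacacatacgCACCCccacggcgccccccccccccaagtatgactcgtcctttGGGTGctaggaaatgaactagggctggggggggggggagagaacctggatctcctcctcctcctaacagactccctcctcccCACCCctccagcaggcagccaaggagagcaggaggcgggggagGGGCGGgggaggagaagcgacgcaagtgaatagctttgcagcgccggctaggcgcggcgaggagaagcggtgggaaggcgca
Peg12, chr7:62464461-62464760, strand minus: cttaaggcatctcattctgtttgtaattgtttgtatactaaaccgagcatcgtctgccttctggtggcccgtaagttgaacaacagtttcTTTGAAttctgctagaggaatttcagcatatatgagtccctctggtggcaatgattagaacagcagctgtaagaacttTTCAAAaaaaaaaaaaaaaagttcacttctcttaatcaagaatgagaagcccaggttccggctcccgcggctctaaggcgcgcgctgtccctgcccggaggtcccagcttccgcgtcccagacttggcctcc
Tril, chr6:53820776-53821075, strand minus: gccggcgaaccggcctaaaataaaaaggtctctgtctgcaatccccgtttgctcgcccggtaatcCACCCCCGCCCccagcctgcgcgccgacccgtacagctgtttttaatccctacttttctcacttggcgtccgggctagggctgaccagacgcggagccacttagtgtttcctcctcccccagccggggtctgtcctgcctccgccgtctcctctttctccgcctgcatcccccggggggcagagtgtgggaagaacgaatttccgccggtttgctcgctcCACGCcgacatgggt

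The windows of Cyp2s1, Lef1 and Tril held 63%, 67.3% and 62.7% G and C. The GC box GGGCGG, known from SP1, was found 3 times in the Cyp2s1 window and once each in those of Lef1 and Tril, and 35.9% of all 27025 windows in the table hold it. The string CACCC, known from KLF factors, was found 3 times at Lef1 and once each at Cyp2s1 and Tril, against 56.7% of all windows with a match. Peg12 held neither. Its window had 47% G and C and 2 matches to TTTGAA, the string of the cell cycle homology region, which 18.1% of all windows hold. The core string of the aryl hydrocarbon receptor site, GCGTG, was found once, at Tril, and is in 32.5% of all windows. None of the 4 windows held the E-box CACGTG, the CRE TGACGTCA, the NF-Y box CCAAT, the TATA box TATAAA, the NRF1 motif, the YY1 string ATGGCGGC, the AP-1 string TGACTCA or the E2F string TTTCCCGC, which says only that these letters are not in these windows.

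In IPO13+/+ cells the treated mean of the 56 genes lay between 44.0% and 69.9% of the untreated mean, with a median of 64.8%. In IPO13-/- cells it lay between 29.8% and 69.3%, with a median of 60.4%. Most of the genes sat near the limit of the choice: at or below 50% of the untreated level were 3 genes in IPO13+/+ cells, 7 in IPO13-/- cells and 2, Prdm14 and Cyp2s1, in both. Summed over the genes, WT-NS libraries held 933 and 890 CPM and WT-ST libraries 583 and 569 CPM, while KO-NS libraries held 991 and 935 CPM and KO-ST libraries 577 and 562 CPM. In bulk RNA, fewer cells with a transcript and less transcript per cell cannot be told apart.

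**Figure D1:**
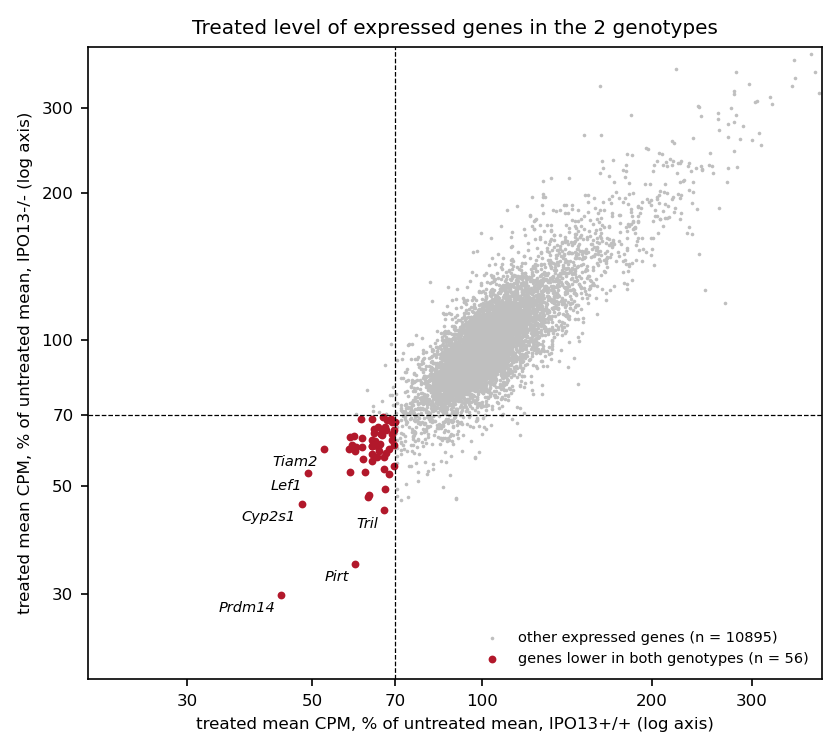
Treated mean CPM as a percentage of the untreated mean for 10951 expressed genes, in IPO13+/+ cells on the x axis and IPO13-/- cells on the y axis, both on log axes, with dashed lines at the limit of 70%. The 56 chosen genes (red) fill the lower left corner, Prdm14 lies farthest out at 44.0% and 29.8%, and 11 genes fall outside the axes.

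By the rule, every treated mean was lower in these same libraries, so their separation largely follows from the choice and is no further support. Both treated libraries were below both untreated libraries for 56 of 56 genes, whichever the genotype. Among all expressed genes the same held for 33% in IPO13+/+ and for 47% in IPO13-/- cells. Pooling the genotypes, all 4 treated libraries were below all 4 untreated libraries for 46 of the 56 genes, against 12.8% of expressed genes. The 10 others, Pirt, Lef1, Cdc42ep5, Zic2, Esam, Mpped2, Cdx1, Arhgef26, B3gnt5 and Sned1, had levels so different between the genotypes that treated cells of one reached the untreated level of the other. The limit was met by 70 genes in IPO13+/+ cells and by 256 in IPO13-/- cells, so the 56 genes were 80% of the former and 21.9% of the latter. These counts depend on the scaling of the CPM. With TMM factors 97 and 222 genes met the limit, and the 71 genes that then met it in both genotypes were 73.2% and 32.0% of them.

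The edge of the set was not a gap in the data. Just inside were Lrrn4 at 69.8% in IPO13+/+ and 54.9% in IPO13-/- cells, Eomes at 69.8% and 60.7%, and Msl3l2 at 69.9% and 67.6%. Just outside were Ceacam1 at 67.6% and 70.1%, Gpr4 at 67.6% and 70.2%, and Slc52a3 at 70.3% and 64.2%. A further 77 genes had treated means of up to 75% in both genotypes. When CPM were scaled by TMM factors, which correct for a few abundant genes that shift the totals, 71 genes met the rule, of which 52 were among the 56.

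By known function 18 of the 56 genes were placed among DNA-binding transcription factors, in a grouping made by hand after the genes had been chosen and not counted over all expressed genes. Prdm14, a PR domain zinc finger protein that helps to keep mESCs in the naive state, had the lowest ratio of all. It was at 41.4 and 42.1 CPM in WT-NS libraries, 18.4 and 18.4 in WT-ST, 50.2 and 52.5 in KO-NS, and 14.4 and 16.2 in KO-ST. The gene lies at chr1:13113457-13127163 on the minus strand of GRCm38 and has 8 exons. The KO-ST libraries were thus the lowest and the KO-NS libraries the highest, and none of the 4 groups overlapped. Foxd3, a forkhead factor of pluripotent and neural crest cells, was at 46.0 and 50.5 CPM in WT-NS, 29.6 and 28.0 in WT-ST, 52.2 and 53.8 in KO-NS, and 31.5 and 32.3 in KO-ST.

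Lef1, whose promoter window is printed above, was at 6.34 and 7.23 CPM in WT-NS, 3.39 and 3.27 in WT-ST, 15.8 and 13.8 in KO-NS, and 8.25 and 7.44 in KO-ST. Its treated level was 49.1% of the untreated level in IPO13+/+ and 53.2% in IPO13-/- cells. Treated IPO13-/- cells thus still held as much Lef1 transcript as untreated IPO13+/+ cells. The paper placed Lef1 among genes that responded to stress in IPO13+/+ cells alone, by an FDR and a 2-fold limit, and took it on to RT-qPCR. The log2 fold changes from edgeR here, -1.07 in IPO13+/+ and -0.88 in IPO13-/- cells, lay on either side of that 2-fold limit. The zinc finger genes Zic5 and Zic2, known from neural development, lie on chromosome 14 with starts 9758 bases apart on opposite strands, and were the only chosen pair within 100 kb. Zic5 was at 6.00 and 5.55 CPM in WT-NS, 3.44 and 3.29 in WT-ST, 9.61 and 9.01 in KO-NS, and 4.72 and 5.20 in KO-ST. Zic2 was at 17.7 and 17.3 CPM in WT-NS, 10.9 and 9.85 in WT-ST, 27.6 and 29.0 in KO-NS, and 17.3 and 18.4 in KO-ST. Both genes stood higher in IPO13-/- than in IPO13+/+ cells under each condition, with no overlap of libraries.

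Other developmental factors met the rule as well. Eomes, a T-box factor of trophoblast and early mesoderm, was at 15.9 and 18.5 CPM in WT-NS, 12.5 and 11.6 in WT-ST, 14.1 and 13.2 in KO-NS, and 8.16 and 8.41 in KO-ST. Sox3, an SRY-related factor of neural progenitors, had untreated levels of 2.52 to 3.31 CPM and treated levels of 1.64 to 2.06 CPM over both genotypes. Cdx1, a caudal homeobox factor, had untreated levels of 2.85 and 3.35 CPM in IPO13+/+ and 1.92 and 2.23 CPM in IPO13-/- cells, and treated levels of 2.12 and 2.00 and of 1.27 and 1.41 CPM. Runx3, Foxr2, Mzf1, Csrnp3, Trps1 and Zfp827 also belonged to the group, and Zfp827, a zinc finger protein, was at 4.65 and 4.05 CPM in WT-NS, 2.82 and 2.23 in WT-ST, 4.54 and 4.06 in KO-NS, and 2.61 and 2.51 in KO-ST.

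The 5 genes with the highest untreated CPM were Egr1, Myrf, Gli2, Rreb1 and Bcl3, 4 of them transcription factors. Egr1, an immediate early gene induced through ERK, was at 141 and 101 CPM in WT-NS, 78.5 and 76.6 in WT-ST, 126 and 104 in KO-NS, and 84.2 and 66.3 in KO-ST. Its untreated replicates were far apart, with an SD of 28.3 CPM in WT-NS (n = 2), the widest relative spread of the 56 genes in that group. Myrf, a membrane-bound factor known from myelin formation, was at 73.9 and 68.7 CPM in WT-NS, 46.1 and 45.0 in WT-ST, 94.6 and 88.1 in KO-NS, and 52.9 and 49.8 in KO-ST. Gli2, a zinc finger effector of Hedgehog signalling, was at 69.5 and 58.0 CPM in WT-NS, 44.4 and 44.5 in WT-ST, 60.8 and 62.2 in KO-NS, and 41.4 and 38.6 in KO-ST. Rreb1, which binds RAS-responsive elements, was at 59.4 and 52.1 CPM in WT-NS, 38.4 and 37.2 in WT-ST, 52.9 and 50.7 in KO-NS, and 36.4 and 34.5 in KO-ST. Per kilobase of transcript, which allows genes to be compared, the highest untreated levels were those of Bcl3 at 28.1, Egr1 at 26.3, Foxd3 at 21.8, Prdm14 at 18.2 and Cyp2s1 at 15.9 CPM per kb.

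Transcriptional co-regulators and chromatin proteins made up 4 of the genes. Bcl3, an IκB family co-regulator and a known target of LIF signalling through STAT3, was at 50.7 and 52.1 CPM in WT-NS, 35.7 and 33.6 in WT-ST, 54.5 and 50.9 in KO-NS, and 31.0 and 30.5 in KO-ST. L3mbtl3, an MBT domain protein that binds methylated lysines, was at 4.96 and 4.86 CPM in WT-NS, 3.41 and 2.77 in WT-ST, 5.67 and 5.28 in KO-NS, and 2.77 and 2.46 in KO-ST. The other 2 were Lbh and Msl3l2. Msl3l2 is related in sequence to Msl3, as Peg12 is to Frat1, and how reads shared between such relatives were counted is not given in the sources used here.

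WNT receptors and FRAT proteins gave 3 genes, each with a single exon. Peg12, an imprinted gene of the FRAT family whose proteins bind the kinase GSK3, was at 6.36 and 6.94 CPM in WT-NS, 4.36 and 3.96 in WT-ST, 8.21 and 8.05 in KO-NS, and 3.54 and 4.17 in KO-ST. Its relative Frat1 was at 4.08 and 4.99 CPM in WT-NS, 2.97 and 2.93 in WT-ST, 6.18 and 6.89 in KO-NS, and 3.73 and 3.75 in KO-ST. Fzd8, a Frizzled receptor for WNT ligands, was at 3.57 and 3.73 CPM in WT-NS, 2.53 and 2.52 in WT-ST, 2.83 and 2.86 in KO-NS, and 1.69 and 1.85 in KO-ST. Untreated levels of both FRAT genes were thus higher in IPO13-/- cells, and those of the receptor lower, without overlap.

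Tiam2, a guanine nucleotide exchange factor, was at 3.92 and 4.04 CPM in WT-NS, 2.07 and 2.09 in WT-ST, 4.04 and 5.10 in KO-NS, and 2.52 and 2.93 in KO-ST. Arhgef26, another exchange factor, was at 4.55 and 4.55 CPM in WT-NS, 3.23 and 2.91 in WT-ST, 13.7 and 12.9 in KO-NS, and 8.96 and 8.40 in KO-ST. Cdc42ep5, an effector of CDC42, was at 8.30 and 9.18 CPM in WT-NS, 5.45 and 4.83 in WT-ST, 4.59 and 4.42 in KO-NS, and 2.77 and 2.71 in KO-ST. Arhgef26 and Cdc42ep5 stood on opposite sides between the genotypes, while the treated fraction of both lay between 58.8% and 67.5%.

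Enzymes, transporters and protease inhibitors gave 9 genes. Cyp2s1, a cytochrome P450 that oxidises small lipophilic molecules and that the study used as a control gene for stress, was at 42.8 and 47.5 CPM in WT-NS, 22.1 and 21.2 in WT-ST, 44.2 and 39.8 in KO-NS, and 18.4 and 20.2 in KO-ST. Its treated level, 47.9% of the untreated level in IPO13+/+ and 45.9% in IPO13-/- cells, differed less between the genotypes than that of Prdm14 or Pirt. Egln3, a prolyl hydroxylase that marks HIF proteins for degradation, was at 35.8 and 48.8 CPM in WT-NS, 27.4 and 26.4 in WT-ST, 31.3 and 32.6 in KO-NS, and 16.8 and 22.9 in KO-ST. The remaining 7 were the glycosyltransferases B3galnt1 and B3gnt5, the riboflavin transporter Slc52a2, the metallophosphoesterase Mpped2, Hpdl, Prss35 and Serpinb9b, with treated levels of 59.4% to 69.3% in IPO13+/+ and 58.9% to 69.3% in IPO13-/- cells.

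Cell surface receptors and adhesion proteins gave 6 genes, among them Robo4, Esam and Ecscr, which are best known from endothelial cells, and Cntfr, a receptor subunit that signals through the LIF receptor. Tril, a partner of Toll-like receptor 4, was at 2.66 and 2.14 CPM in WT-NS, 1.44 and 1.77 in WT-ST, 2.59 and 2.73 in KO-NS, and 1.12 and 1.25 in KO-ST. Of 10 other proteins, Pirt, which binds phosphoinositides and regulates TRP channels, was at 4.03 and 3.98 CPM in WT-NS, 2.28 and 2.49 in WT-ST, 2.53 and 2.25 in KO-NS, and 0.730 and 0.924 in KO-ST. Untreated IPO13-/- cells thus held about as much Pirt transcript as treated IPO13+/+ cells. Dnajc22, a DNAJ family protein, was at 2.38 and 2.43 CPM in WT-NS, 1.66 and 1.33 in WT-ST, 2.25 and 2.48 in KO-NS, and 1.30 and 1.22 in KO-ST. Jph4, a junctophilin that ties the endoplasmic reticulum to the plasma membrane, was at 5.72 and 6.12 CPM in WT-NS, 4.10 and 3.86 in WT-ST, 6.21 and 6.03 in KO-NS, and 2.87 and 3.15 in KO-ST.

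The 3 long non-coding RNAs were 4930461G14Rik, Gm16880 and Mir17hg, the host transcript of the miR-17 to miR-92 cluster. Mir17hg was at 38.1 and 30.3 CPM in WT-NS, 22.7 and 22.7 in WT-ST, 33.0 and 25.4 in KO-NS, and 18.2 and 19.0 in KO-ST. These values count reads on the host transcript and say nothing of the mature miRNAs.

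The other genes can be given by their ranges. The factors Trps1, Runx3, Foxr2, Mzf1 and Csrnp3 had treated levels of 64.4% to 66.9% of the untreated level in IPO13+/+ and 54.2% to 66.1% in IPO13-/- cells. The surface proteins Robo4, Esam, Ecscr, Cntfr and Lrrn4 had 58.3% to 69.8% and 54.9% to 68.5%. The proteins Mmgt2, Ldoc1, Tram2, Sned1, AI118078, Tmem151b and Gfod1 had 61.1% to 69.1% and 60.0% to 68.7%, and the co-regulator Lbh had 63.8% and 60.5%. The non-coding RNAs 4930461G14Rik and Gm16880 had 61.5% and 68.4% in IPO13+/+ and 56.8% and 52.8% in IPO13-/- cells.

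For 6 genes, Lef1, Zic2, Esam, Mpped2, Arhgef26 and B3gnt5, the mean of treated IPO13-/- cells was at or above the mean of untreated IPO13+/+ cells. B3gnt5, a glycosyltransferase of the lacto-series glycolipids, was at 14.8 and 15.0 CPM in WT-NS, 9.99 and 9.85 in WT-ST, 23.7 and 23.3 in KO-NS, and 16.0 and 16.6 in KO-ST. Esam, an adhesion molecule of endothelial junctions, was at 3.74 and 4.69 CPM in WT-NS, 2.94 and 2.58 in WT-ST, 9.19 and 6.97 in KO-NS, and 4.97 and 4.72 in KO-ST. Its KO-NS replicates had the widest relative spread of that group, with an SD of 1.57 CPM (n = 2). For 2 genes, Cdc42ep5 and Sned1, the order was the other way, and untreated IPO13-/- cells were at or below treated IPO13+/+ cells. Sned1, an extracellular matrix protein, was at 5.12 and 4.24 CPM in WT-NS, 3.29 and 3.17 in WT-ST, 3.08 and 2.58 in KO-NS, and 2.04 and 1.80 in KO-ST.

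**Figure D2:**
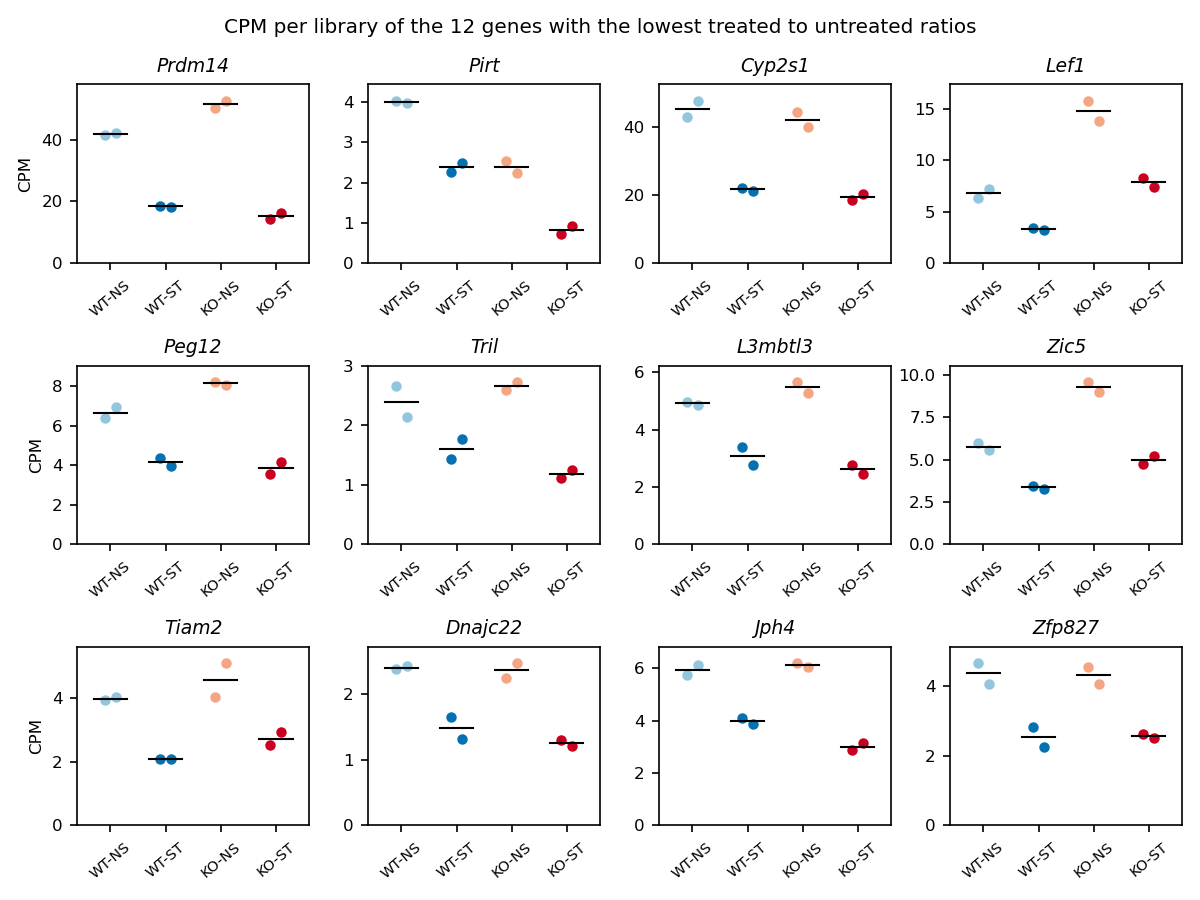
CPM of each library (points) and the group mean (line) for the 12 genes with the lowest treated to untreated ratios, on linear axes that start at 0, in WT-NS, WT-ST, KO-NS and KO-ST. In every panel the treated points lie below the untreated points of the same genotype, and for Lef1 the KO-ST points, at 8.25 and 7.44 CPM, lie above the WT-NS points.

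The treated fraction was lower in IPO13-/- than in IPO13+/+ cells for 42 of the 56 genes with the deposited CPM, but for 27 of 56 with TMM scaling and 29 of 56 with DESeq2 size factors, so its direction over the set rests on the scaling. Over all expressed genes the median log2 ratio was -0.0042 for IPO13+/+ and -0.05 for IPO13-/- cells with the deposited CPM, and -0.04 and -0.02 with TMM. The widest gaps, as the log2 ratio in IPO13-/- minus that in IPO13+/+ cells, were -0.78 for Pirt, -0.59 for Tril and -0.56 for Prdm14 on one side. On the other side they were 0.19 for Tiam2, 0.17 for Tmem151b and 0.11 for Lef1. These gaps come from the same ratios that chose the genes and were not tested.

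The genotypes were then compared under each condition, a contrast that the choice of genes did not use. In untreated cells 3 of the 56 genes passed an FDR of 0.05 with at least a 2-fold difference in edgeR's quasi-likelihood test, against 4.71% of the 19424 genes tested and 1.28% of the expressed genes. Arhgef26 was higher in IPO13-/- cells by 1.47 on the log2 scale (SE 0.07, FDR = 7.4e-15 by edgeR) and Lef1 by 1.04 (SE 0.08, FDR = 2.3e-11). Cdc42ep5 was lower, at -1.03 (SE 0.08, FDR = 7.5e-11). Lef1 and Cdc42ep5 were close to the 2-fold limit. Lef1 stood at 0.96 without WT-NS replicate 1 and at 0.96 without KO-NS replicate 1, and Cdc42ep5 at -0.96 without WT-NS replicate 2.

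In treated cells 3 genes passed the same thresholds, against 4.56% of all genes tested and 1.3% of the expressed genes. Arhgef26 was higher in IPO13-/- cells by 1.49 (SE 0.09, FDR = 1.2e-13) and Lef1 by 1.23 (SE 0.10, FDR = 7.6e-11), as log2 fold changes from edgeR. Pirt was lower, at -1.54 (SE 0.15, FDR = 3.2e-09), and in untreated cells it had been at -0.82 (SE 0.10, FDR = 4.1e-07). The minimum of 2 CPM in both untreated groups keeps out genes that are silent in one genotype, which bears on how many large differences the set can hold.

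At an FDR of 0.05 alone, 33 of the 56 genes differed between the genotypes in untreated cells, 17 of them higher and 16 lower in IPO13-/- cells. This is 58.9% of the set, beside 38.2% of all genes tested and 53.4% of expressed genes, of which 24.6% were higher and 28.8% lower. In treated cells 34 differed, 15 higher and 19 lower. This is 60.7% of the set, beside 36.6% of all genes tested and 50.6% of expressed genes, of which 26.5% were higher and 24% lower. In the fit of all 8 libraries the share of the set that differed between genotypes was thus near that of all expressed genes. With any 1 library of a comparison left out, fewer of the 56 genes passed under either condition. The DESeq2 test and limma-voom gave fewer as well, and a replicate block gave more. The share of expressed genes was not taken for those fits. The comparisons share no library, and 26 genes passed in both, of which 12 were higher and 13 lower in IPO13-/- cells under both conditions. Passing in both with 1 sign was seen for 44.6% of the set and 37.4% of expressed genes. The exception was Prdm14, higher by 0.22 in untreated cells (SE 0.05, FDR = 0.001 by edgeR) and lower in treated cells at -0.27 (SE 0.06, FDR = 0.00058). A further 7 genes passed in untreated cells alone, 8 in treated cells alone and 15 in neither. These were 12.5%, 14.3% and 26.8% of the set, beside 15.4%, 12.6% and 34% of expressed genes. The sign was the same under both conditions for 49 of 56 (87.5%), beside 80.9% of expressed genes.

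Among the 18 transcription factors, 6 were higher and 4 lower in untreated IPO13-/- cells at this FDR. Zic2 was higher by 0.61 (SE 0.06, FDR = 2.4e-09 by edgeR) and Zic5 by 0.61 (SE 0.08, FDR = 3e-07), and Eomes was lower at -0.42 (SE 0.07, FDR = 1.7e-05). Foxd3 differed by 0.05 (SE 0.05, FDR = 0.45), which did not pass. Of the 3 WNT receptor and FRAT genes, Frat1 was higher by 0.44 (SE 0.09, FDR = 0.00028) and Peg12 by 0.21 (SE 0.08, FDR = 0.039), whereas Fzd8 was lower at -0.44 (SE 0.10, FDR = 0.00062). Cyp2s1 was slightly lower in IPO13-/- cells, at -0.18 (SE 0.06, FDR = 0.011) untreated and -0.17 (SE 0.07, FDR = 0.036) treated. The 3 non-coding RNAs all had lower values in IPO13-/- cells, and 2 of them passed in untreated and 3 in treated cells.

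**Figure D3:**
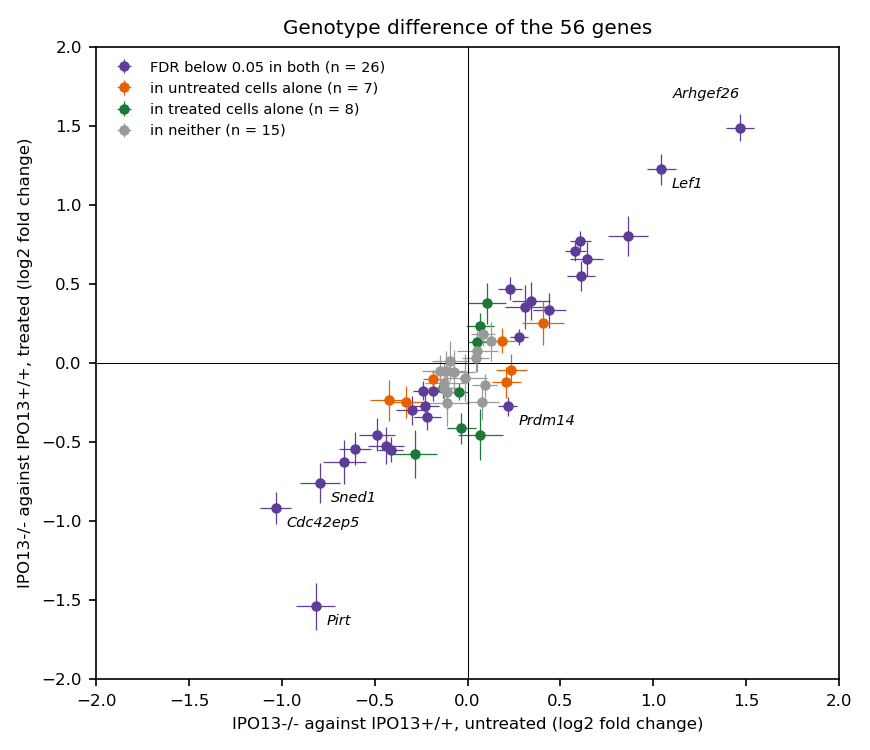
Log2 fold change of IPO13-/- against IPO13+/+ cells for the 56 genes in untreated (x axis) and treated cells (y axis), with bars of 1 SE from edgeR and colours for the condition in which the FDR was below 0.05. Arhgef26 and Lef1 lie at the upper right, Cdc42ep5 and Pirt at the lower left, and Prdm14 alone passes in both conditions with opposite signs.

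What the rule did not use is the structure of the genes. All 56 were matched to GENCODE M21 on GRCm38, 53 as protein-coding and 3 as long non-coding RNA. The coding genes had few exons, with a median of 5 against 9 for 10699 expressed coding genes and 9.5 for the 330 coding genes of the raised counterpart. A single exon was found in 8 of the 53 (15.1%), Peg12, Tril, Foxd3, Frat1, Sox3, Ldoc1, Hpdl and Fzd8, beside 1.74% of expressed and 3.33% of raised genes. At most 3 exons were found in 22 (41.5%), beside 11.1% and 14.5%. These are descriptions with no test.

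Split by level, the share of single-exon genes was above that of expressed genes at both levels. Among coding genes with an untreated mean under 10 CPM, single-exon genes were 18.2% of 33 members, 3.38% of 2220 expressed genes and 3.05% of 131 raised genes. At 10 CPM or more they were 10% of 20 members, 1.31% of 8479 expressed genes and 3.52% of 199 raised genes. That 10% is only 2 genes, Foxd3 and Hpdl, and Hpdl lay just above the split at 10.2 CPM.

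**Figure D4:**
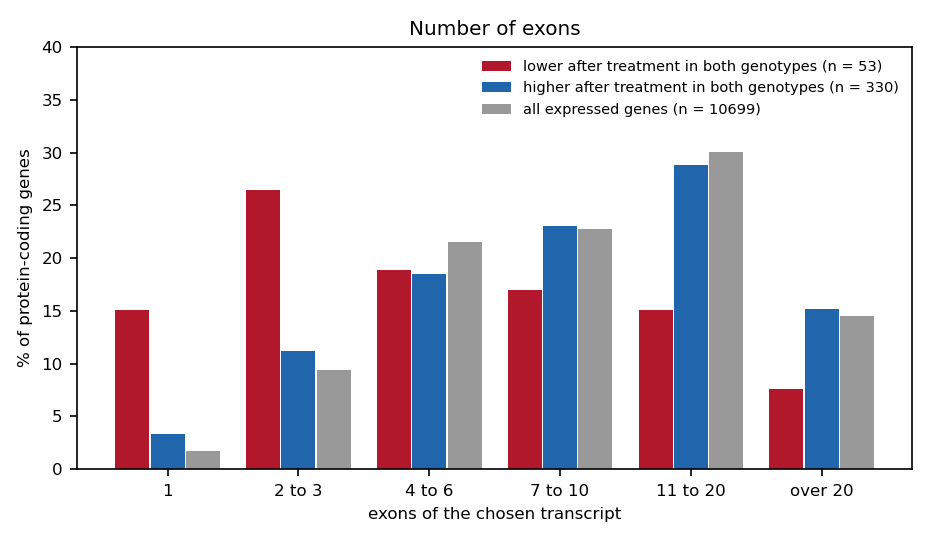
Share of protein-coding genes by the number of exons of the transcript chosen for each gene, for 53 genes lower after treatment in both genotypes, 330 genes higher in both and all 10699 expressed genes. Genes with 1 exon were 15.1% of the first, 3.33% of the second and 1.74% of the third, and those with 11 to 20 exons 15.1%, 28.8% and 30.1%.

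Transcripts of the coding genes had a median length of 3444 bases, beside 3036 for expressed genes, and their coding length was 1350 beside 1431 bases. The median 3′ untranslated region was 1486 bases, beside 994 for expressed and 1186.5 for raised genes. Genes spanned a median of 14309 bases, beside 24854. The pentamer ATTTA, the core of the AU-rich elements that mark short-lived mRNAs, occurred at a median of 1.32 per kb of 3′ untranslated region, beside 1.34 for expressed genes. An AU-rich nonamer was found in 9 of 52 genes (17.3%), beside 16.7%. At least 1 ATTTA was found in the 3′ untranslated region of 78.8% of the 52, beside 69.9% of expressed genes. A symbol made of Zfp, Znf, Zbtb, Zscan or Zkscan and a number, a naming family that leaves out zinc finger proteins such as Prdm14, Zic2, Zic5, Gli2 and Mzf1, was borne by 1 of the 56 genes, Zfp827 (1.79%, exact 95% interval 0.0452% to 9.55%), beside 3.22% of expressed genes. Without WT-NS replicate 2, which changes the genes chosen, the share was 5.45%.

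Of 16 lists of pathway genes, 8 held at least 1 of the 56 genes, and 13 of the genes were on a list. The calls of the 56 genes in the stress contrasts were fixed by their choice, so the lists are counted without them. Over all 19424 genes tested, 2679 (13.8%) were lower and 2229 (11.5%) higher in treated IPO13+/+ cells at an FDR of 0.05 in edgeR, and 2803 (14.4%) were lower and 2901 (14.9%) higher in IPO13-/- cells. Among expressed genes 23% were lower and 13.9% higher in IPO13+/+, and 22.8% and 20.4% in IPO13-/- cells. Of 26 pluripotency transcription factors other than Prdm14 and Foxd3, all of them expressed, 16 were lower and 2 higher in IPO13+/+ cells, with a median log2 fold change of -0.15, and 13 were lower and 6 higher in IPO13-/- cells, with a median of -0.09. Of 47 homeobox and developmental factors other than Zic5, Zic2, Sox3, Eomes and Cdx1, only 17 were expressed. Of the 47, 9 were lower and 4 higher in IPO13+/+ and 12 and 4 in IPO13-/- cells, with medians of -0.16 and -0.09. Over all genes tested the medians were -0.0011 and 0. Over expressed genes the median log2 ratios of TMM-scaled CPM were -0.04 in IPO13+/+ and -0.02 in IPO13-/- cells.

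The lists of the other chosen genes were counted in the same way. Of 25 WNT signalling genes other than Lef1, 18 of them expressed, 7 were lower and 6 higher in IPO13+/+, and 6 and 5 in IPO13-/- cells. The list of FGF and ERK signalling without Egr1 had 7 lower and 5 higher of 23, and 6 and 11. That of LIF and STAT3 without Bcl3 had 3 lower and 3 higher of 13, and 2 and 4. In glycolysis and hypoxia, without Egln3, 15 of 32 were lower and 0 higher in IPO13+/+, and 12 lower and 6 higher in IPO13-/- cells. Cytochromes P450 and AHR targets without Cyp2s1 had 1 lower and 4 higher of 17, and 2 and 7, with only 7 of the 17 expressed. Cilium genes without Gli2 had 6 lower and 4 higher of 37, and 9 and 3. Mitosis genes, all of them expressed, held none of the 56, and 34 of 45 were lower and 1 higher in IPO13+/+ and 22 lower and 2 higher in IPO13-/- cells, with medians of -0.18 and -0.11.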

How the data were processed

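Libraries were made from polyadenylated RNA with an Illumina TruSeq kit and sequenced as paired ends. The labels and the Methods name different HiSeq models, lanes and read lengths. The submitters' processing notes name bcl2fastq, STAR 2.3.1, HTSeq, limma and mm10, and the strand setting of the counting is not given in the sources used here. The authors deposited raw counts per gene symbol and library, not normalized. The authors also deposited CPM, each count scaled to its library total, which matched the counts within 0.0005 CPM. Some symbols had been turned into dates by a spreadsheet, and were kept apart.

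The genes were chosen from the CPM. Tests used the counts of 19424 genes with at least 1 count, in R 4.3.3 with edgeR 4.0.16 (TMM, quasi-likelihood, all 8 libraries, 1 coefficient per group), FDR by Benjamini-Hochberg over all genes. A 2-fold difference and an FDR of 0.05 are the thresholds of the study. Standard errors are the log2 fold change over the square root of F. Alternatives used DESeq2 1.42.0, limma 3.58.1 (voom) and others given below. The script for the tests was tested on simulated data. Exon, length and position data came from GENCODE M21, promoters from RefSeq. The genes and lists were chosen with earlier results of these data known, and roles were given after the genes were known. Genes named are the 12 with the lowest mean log2 ratio, up to 4 per list, the 5 highest in untreated cells, those that differed 2-fold between genotypes, the 3 with the widest gap in each direction, those next to the limit, Cyp2s1 and Ipo13. The rest were named by role after their values were seen.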

Additional observations from a re-analysis of the deposited data

Results flagged for a closer look

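The difference between genotypes took opposite signs in untreated and treated cells for 2 of the genes, with every library of one genotype on the same side of every library of the other under each condition. Prdm14 in IPO13-/- against IPO13+/+ cells was at 0.22 on the log2 scale without treatment (FDR = 0.00102 by edgeR) and at -0.27 after it (FDR = 0.000584). L3mbtl3 was at 0.080 without treatment and at -0.25 after it, and neither value passed an FDR of 0.05 in edgeR (0.55 and 0.097). Its treated libraries were barely apart, at 2.765 CPM in KO-ST replicate 1 and 2.768 CPM in WT-ST replicate 2. How many expressed genes show such a pattern of libraries was not counted. Passing that FDR in both conditions with opposite signs was seen for 1.79% of the set and 0.612% of expressed genes. The change of sign itself was not tested, since the ratios that make it up chose the genes.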

How the results depend on the processing

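With a minimum of 5 CPM in place of 2, 29 genes met the rule and 0% had a symbol of the Zfp naming family, a share that lay between 1.64% and 5.45% with 1 library left out. With a minimum of 1 CPM 77 genes met it, with TMM scaling 71 and with DESeq2 size factors 63, and with 1 library left out 51 to 61, of which 41 to 55 were among the 56. Fewest of the 56 were kept when either WT-NS replicate was left out. Chi-square per gene between replicates, near 1 for counting error alone, was 15.0 in WT-NS, 2.26 in WT-ST, 4.58 in KO-NS and 6.59 in KO-ST. TMM scaling lost B3gnt5, Cntfr, Gfod1 and Tmem151b. With library totals in place of TMM factors 0 genes were called lower in untreated IPO13-/- cells, where Cdc42ep5 was at -0.95 (FDR = 1.7e-10 by edgeR). Leaving out 1 library at a time, 1 to 3 genes were called higher and 0 to 1 lower in untreated IPO13-/- cells, and 2 higher and 1 to 2 lower in treated ones. At an FDR of 0.05 alone these fits gave 25 to 32 genes untreated and 21 to 26 treated. DESeq2 gave 23 and 23 genes at that FDR, and limma-voom 30 and 24. The share of expressed genes was not counted under any alternative fit, so a change in the set cannot be told from one over all genes. No treated to untreated ratio of the 12 genes with the lowest ratios and no 2-fold genotype difference reversed in sign, but genes with the lower ratio in IPO13-/- cells went from 42 to 27 of 56 with TMM scaling. Groups share replicate numbers that no label ties to a culture or day. Same-numbered deviations correlated at 0.34 between WT-NS and KO-NS, 0.59 between WT-NS and KO-ST and 0.31 between KO-NS and KO-ST, but at -0.03, -0.08 and -0.0029 where WT-ST was one of the groups. With 2 numbers this does not establish pairs. With the replicate block, 3 genes were called in each condition, and 36 and 37 at an FDR of 0.05 alone. Shares of promoters with a motif gave no value under any alternative, since fewer than 80% of the genes had a window.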
